A study of Homo sapiens with 6 samples.

Results

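The 8 genes PDGFA, PDGFB, PDGFC, PDGFD, VEGFA, VEGFB, VEGFC and PGF encode the platelet-derived and vascular endothelial growth factors. They were taken by symbol from the 58735 genes of the count table, and the set was chosen by symbol with the counts and fold changes of the comparison below already known, so their differences are described and carry no p-value. RNA was sequenced from KYSE410, an established line of oesophageal squamous cell carcinoma cells, in 3 libraries with ADAR1 knocked down by siRNA (siADAR1) and 3 control libraries. The control titles read NC, and other labels call these cells control or wild type without saying whether they received an siRNA of their own, so effects of delivery cannot be told apart from loss of ADAR1. No label says that the libraries came from separate cultures, so the spread behind each p-value is that between these libraries and may be technical.

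The proteins of this family are secreted dimers whose subunits each hold a cystine knot. PDGF ligands act on the receptor tyrosine kinases PDGFRA and PDGFRB, which are typical of fibroblasts and mural cells, and VEGF ligands act on FLT1, KDR and FLT4, which are typical of blood and lymphatic endothelium. Carcinoma cells are a known source of these ligands in tumours, and VEGFA is a classical target of hypoxia-inducible factor (HIF).

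The knockdown target was lower in every siADAR1 library. ADAR had 92.8, 95.7 and 77.6 counts per-million (CPM) in the siADAR1 libraries, against 455.6, 431.5 and 443.5 CPM in the controls (log2 fold change -2.32 ± 0.09, SE; edgeR quasi-likelihood adjusted p = 1.06e-08). Library totals were 15175619 to 16903792 counts in siADAR1 and 15497788 to 17329443 in control. Of 15294 genes with enough counts to be tested, 7804 passed an adjusted p of 0.05, 3973 higher and 3831 lower, so a call by itself was common here. Squamous epithelial markers summed to 1394 to 1457 CPM in siADAR1 and 1497 to 1548 CPM in control, although KRT14, a basal keratin, had at most 2 counts in any library. Much of that sum came from CDH1 (means of 453.1 CPM in siADAR1 and 575.2 in control) and EPCAM (216.4 and 255.4 CPM). Both are general to epithelia, so the sum is no measure of squamous identity alone. Of the 9 squamous markers tested, 3 rose and 4 fell, among them DSG3, a desmosomal cadherin, which rose by 1.54 on the log2 scale, and KRT6A, a keratin, which fell by 2.24. Endothelial markers summed to 2.48 to 3.50 CPM in siADAR1 and 4.47 to 5.32 CPM in control, and leukocyte markers to 0.699 to 2.71 CPM in siADAR1 and 0.526 to 0.906 CPM in control. Fibroblast and mural markers summed to 75.1 to 86.8 CPM in siADAR1 and 44.5 to 64.3 CPM in control, carried by LUM and COL1A1, while DCN had 0 counts and COL1A2 at most 3. CSPG4, a mural marker of the same list, went against that sum, at 0.977 CPM in siADAR1 and 5.11 CPM in control (log2 fold change -2.39, edgeR adjusted p = 1.06e-04). The part of these marker differences in the results below was not tested.

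Promoter windows were present in the RefSeq promoter table (GRCh38.p14, 250 bases before to 50 after a start) for 5 of the 8 genes. VEGFA and PDGFB, which rose most, were not among them, so rising and falling members can be compared by sequence only in part. Windows of the 4 expressed genes that had one are shown. Each is the window nearest to the annotated gene start, 5′ to 3′ on the gene's own strand, and capitals mark GC boxes, the core bound by SP1 (GGGCGG on either strand, overlapping matches allowed). The windows are VEGFB at chr11:64234334-64234633 on the plus strand, VEGFC at chr4:176792873-176793172, PGF at chr14:74955715-74956014 and PDGFA at chr7:520177-520476, the last 3 on the minus strand. The VEGFC window lies wholly upstream of the annotated start of that gene at 176792727, whereas each of the others contains its own annotated start.
VEGFB: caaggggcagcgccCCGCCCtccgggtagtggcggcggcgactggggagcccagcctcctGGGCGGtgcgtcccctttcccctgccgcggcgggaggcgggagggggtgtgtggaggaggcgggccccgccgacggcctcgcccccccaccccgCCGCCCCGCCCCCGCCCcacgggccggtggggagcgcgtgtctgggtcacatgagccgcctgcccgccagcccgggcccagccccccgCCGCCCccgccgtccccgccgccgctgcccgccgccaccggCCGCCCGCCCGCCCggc
VEGFC: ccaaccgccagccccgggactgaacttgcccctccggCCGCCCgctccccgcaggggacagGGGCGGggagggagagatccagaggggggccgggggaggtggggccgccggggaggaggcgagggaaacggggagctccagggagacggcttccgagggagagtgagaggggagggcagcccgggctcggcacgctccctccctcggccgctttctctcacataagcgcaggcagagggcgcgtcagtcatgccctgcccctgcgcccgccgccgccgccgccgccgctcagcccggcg
PGF: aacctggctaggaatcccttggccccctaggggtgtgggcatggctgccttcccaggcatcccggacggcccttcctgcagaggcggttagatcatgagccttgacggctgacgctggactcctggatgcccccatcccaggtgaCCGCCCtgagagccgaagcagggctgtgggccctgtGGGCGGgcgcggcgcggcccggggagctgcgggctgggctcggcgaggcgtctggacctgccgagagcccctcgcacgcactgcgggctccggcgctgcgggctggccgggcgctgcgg
PDGFA: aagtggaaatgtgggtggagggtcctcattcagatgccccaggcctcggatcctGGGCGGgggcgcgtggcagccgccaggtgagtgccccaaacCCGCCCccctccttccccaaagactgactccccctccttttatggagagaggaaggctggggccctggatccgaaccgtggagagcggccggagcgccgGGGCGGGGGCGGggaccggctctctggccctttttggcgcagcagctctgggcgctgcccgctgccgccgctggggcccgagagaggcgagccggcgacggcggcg
All 4 windows are rich in G and C, at 84.7% in VEGFB, 76.3% in VEGFC, 73.0% in PGF and 71.7% in PDGFA, where the median of all 35116 windows is 58.7%. The VEGFB window holds 9 GC boxes, and 0.419% of all windows hold as many. VEGFC and PGF hold 2 each, a number reached by 26.7% of windows, and PDGFA holds 4, reached by 9.06%. PGF and PDGFA have further windows that are not shown, and their numbers depend on the window. The further PGF window holds 4 GC boxes, and those of PDGFA hold 1, 4 and 5, with 3, 2 and 0 hypoxia response cores. Each of the 4 windows holds 1 hypoxia response core (ACGTG or GCGTG), found in 48.4% of all windows. The EGR1 motif GCGNGGGCG, which overlaps the GC box, was found 2 times each in VEGFB and PDGFA (9.43% of all windows hold it). The AP-1 motif TGANTCA (7.71% of windows), the ATF4 motif TGATGNAA (3.62%) and the NF-kB consensus (5.91%) matched none of the 4 windows on either strand. VEGFA, PDGFB and PDGFC had no entry in that table.

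Among the VEGF genes, VEGFA was much higher in siADAR1, VEGFB was lower, and VEGFC and PGF differed less. VEGFA (ENSG00000112715, chromosome 6, 43770184 to 43786487, GRCh38), the main angiogenic ligand and an activator of FLT1 and KDR, had 625, 484 and 484 CPM in siADAR1 libraries 1 to 3, against 143, 112 and 105 CPM in control libraries 1 to 3. The lowest siADAR1 library lay far above the highest control library, and replicate 1 was the highest of its group in both. Its means were 531 ± 81.7 CPM in siADAR1 and 120.2 ± 19.9 CPM in control (SD, n = 3 each), a log2 fold change of 2.14 ± 0.13 (SE), or 4.42-fold. In bulk RNA, a change in the share of cells that express a gene and a change in RNA per cell cannot be told apart.

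VEGFB (ENSG00000173511, chromosome 11, 64234538 to 64238793), a ligand of FLT1 and neuropilin-1, went the other way. It had 25.1, 25.6 and 29.9 CPM in siADAR1, against 56.0, 56.6 and 52.0 CPM in control. All 3 siADAR1 libraries lay below all 3 controls, at 26.9 ± 2.63 CPM against 54.9 ± 2.52 CPM (SD, n = 3 each), a log2 fold change of -1.03 ± 0.11 (SE).

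VEGFC (ENSG00000150630, chromosome 4, 176683538 to 176792727), the lymphangiogenic ligand of FLT4, had 65.2, 66.1 and 72.7 CPM in siADAR1, against 55.6, 58.4 and 58.2 CPM in control. The groups did not overlap, but the difference was small, at 1.18-fold (log2 fold change 0.24 ± 0.09, SE), and 8 of 17 alternative settings did not call it, among them the fits without siADAR1 replicate 2 or 3 and those without any 1 of the controls. PGF (ENSG00000119630, chromosome 14, 74941834 to 74955784), a placental ligand that binds FLT1, had 11.4, 11.7 and 11.0 CPM in siADAR1, against 13.6, 15.0 and 18.1 CPM in control. Its siADAR1 libraries were close together and all below the controls (log2 fold change -0.45 ± 0.15, SE), and 5 of 17 alternatives did not call it, among them library totals alone and the fits without control replicate 3, siADAR1 replicate 2 or siADAR1 replicate 3. VEGFD, the family gene that the members leave out, had 2, 0 and 0 counts in siADAR1 and 3, 3 and 0 in control, at or under a floor of 3 counts, and no fold is given.

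Among the PDGF genes the difference lay in PDGFB, while PDGFA and PDGFC overlapped between groups. PDGFB (ENSG00000100311, chromosome 22, 39223359 to 39244751), whose product binds both PDGF receptors, had 107, 94.4 and 93.3 CPM in siADAR1, against 15.5, 17.8 and 14.7 CPM in control. Every siADAR1 library stood far above every control, and the libraries of each group lay close together. The means were 98.3 ± 7.76 CPM in siADAR1 and 16.0 ± 1.63 CPM in control (SD, n = 3 each), a log2 fold change of 2.62 ± 0.11 (SE), or 6.14-fold, the largest of the 7 members with enough counts to be tested.

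PDGFA (ENSG00000197461, chromosome 7, 497258 to 520296), a ligand of PDGFRA, had 66.8, 47.7 and 54.1 CPM in siADAR1, against 63.4, 50.6 and 46.1 CPM in control. The groups overlapped, and each held its highest value in replicate 1 (log2 fold change 0.07 ± 0.14, SE). PDGFC (ENSG00000145431, chromosome 4, 156760454 to 156971394), a ligand of PDGFRA that must be cleaved to become active, had 51.7, 52.6 and 54.6 CPM in siADAR1, against 47.9, 62.7 and 57.4 CPM in control (log2 fold change -0.08 ± 0.11, SE). The siADAR1 libraries of PDGFC lay inside the range of the controls. PDGFD (ENSG00000170962, chromosome 11, 103907186 to 104164379), the other ligand with a CUB domain, had 2, 4 and 1 counts in siADAR1 and 0, 0 and 2 in control, too few to be tested, and no fold is given.

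**Figure D1:**
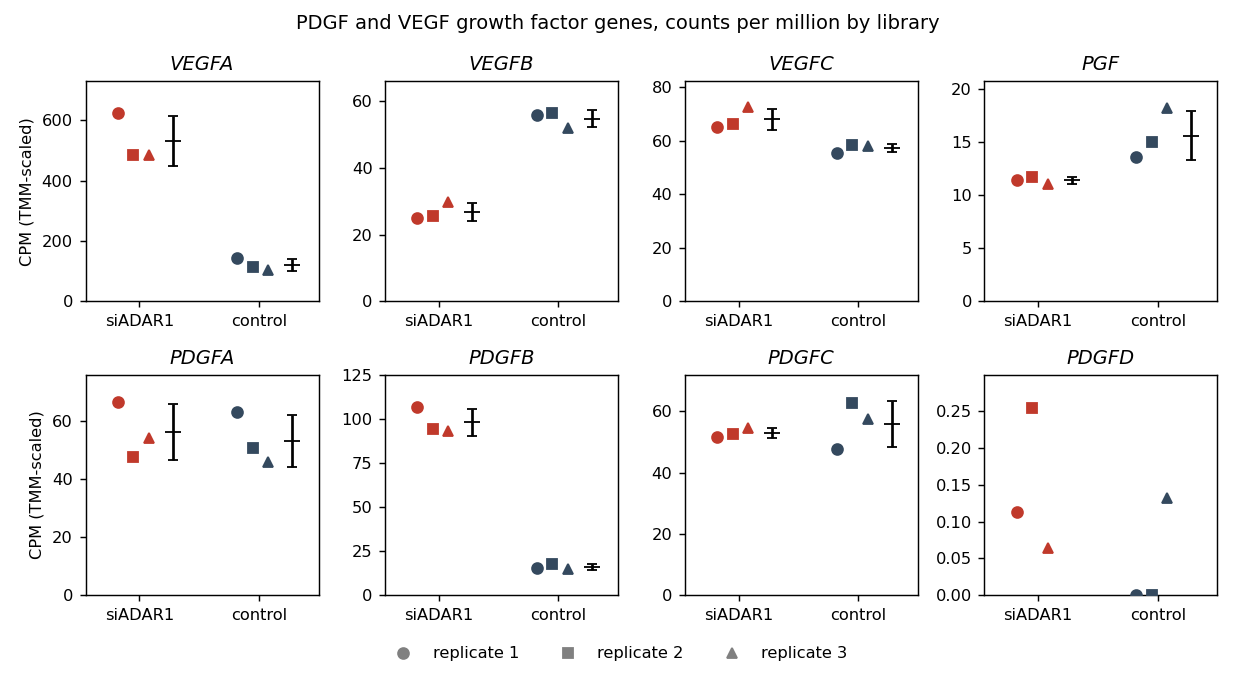
CPM on TMM-scaled library sizes for the 8 genes, 1 panel each with its own axis from 0; symbols are libraries by replicate number, and black bars are mean ± SD (n = 3 per group; none for PDGFD, which had at most 4 counts in a library). VEGFA and PDGFB stand far higher in siADAR1 than in control, VEGFB stands lower, and PDGFA and PDGFC overlap.

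Of the 7 members tested, 3 passed the threshold as higher and 2 as lower, where 26.0% and 25.0% of all tested genes did (51.0% in either direction). The same 5 did not overlap between groups, where 60.3% of tested genes did not, 30.7% with siADAR1 above and 29.7% with siADAR1 below. Because the members were chosen with this contrast in view, these counts describe them and nothing is read from them. The median log2 fold change of the 7 was 0.07, against 0.00 over all tested genes. PDGFB and VEGFA lay above 98.9% and 98.1% of tested genes by log2 fold change, and VEGFB above 5.03%. Called differences of at least 2-fold were found for 9.85% of tested genes as higher and 4.94% as lower. Summed over the 8 genes, reads came to 953, 782 and 799.6 CPM in siADAR1, against 395, 373 and 352 CPM in control. Without VEGFA the sums were 328, 298 and 316 CPM in siADAR1 and 252, 261 and 247 CPM in control, so that most of the extra reads of the family belonged to VEGFA.

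The members also varied between replicates in unlike ways. Replicate 1 exceeded the mean of the other libraries of its group 1.29-fold in siADAR1 and 1.31-fold in control for VEGFA, and 1.31-fold in both groups for PDGFA. Over all tested genes the median of this ratio was 0.997 in siADAR1 and 1.00 in control, but TMM scaling holds it near 1 in any case. Replicate 1 still differed from replicates 2 and 3 more than these differed from each other, in both groups. Over genes with at least 20 counts, chi-square per degree of freedom was 14.8 and 18 against 3.95 in siADAR1. In control it was 14.1 and 16.8 against 5.02. For VEGFC the ratio was 0.939 in siADAR1 and 0.954 in control, and for PDGFC 0.965 in siADAR1 and 0.797 in control. The coefficient of variation was 15.4% in siADAR1 and 16.6% in control for VEGFA. It was 17.3% in siADAR1 and 16.8% in control for PDGFA, where the medians over all tested genes were 10.7% in siADAR1 and 11.8% in control. With both libraries numbered 1 left out, chosen after seeing the data, the same 3 members were called higher and the same 2 lower.

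Levels of different genes can be compared only per length, and the order of the family depended on the length used. The deposited FPKM (fragments scaled by gene length and library size) divide by the union of all annotated exons, which is 14431 bases for VEGFA with its 32 annotated transcripts, although its longest coding transcript has 3535. On that scale VEGFB led in control at 35.2 ± 1.61 FPKM, followed by VEGFC at 23.5 ± 0.66 and PDGFA at 12.7 ± 2.13 (SD, n = 3). PDGFA, PDGFC and VEGFA followed each other with library ranges that overlapped between neighbours, VEGFA at 8.24 ± 1.36 FPKM. PDGFB at 4.21 ± 0.43 and PGF at 2.59 ± 0.39 followed, each apart from the next, and PDGFD came last with at most 0.0305 in a library.

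In siADAR1 the same scale put VEGFA highest, at 36.3 ± 5.62 FPKM, then VEGFC at 27.7 ± 1.60 and PDGFB at 25.8 ± 2.06, whose ranges overlapped. VEGFB at 17.2 ± 1.64, PDGFA at 13.4 ± 2.32, PDGFC at 9.35 ± 0.24 and PGF at 1.88 ± 0.06 FPKM followed, each apart from the next. Divided by the longest coding transcript, VEGFA averaged 148.4 in siADAR1 and 33.7 in control on the same scale. That moved it to rank 2 in control, overlapping with VEGFB at 39.4, and left it at rank 1 in siADAR1, apart from VEGFC at 32.5. By the median coding transcript it ranked highest in both groups, at 477.4 in siADAR1 and 108.3 in control. Both lengths were tried after seeing the data. With the same length used for both groups, the fold between groups within 1 gene does not depend on it. Whether the groups used the same transcripts of a gene was not tested.

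**Figure D2:**
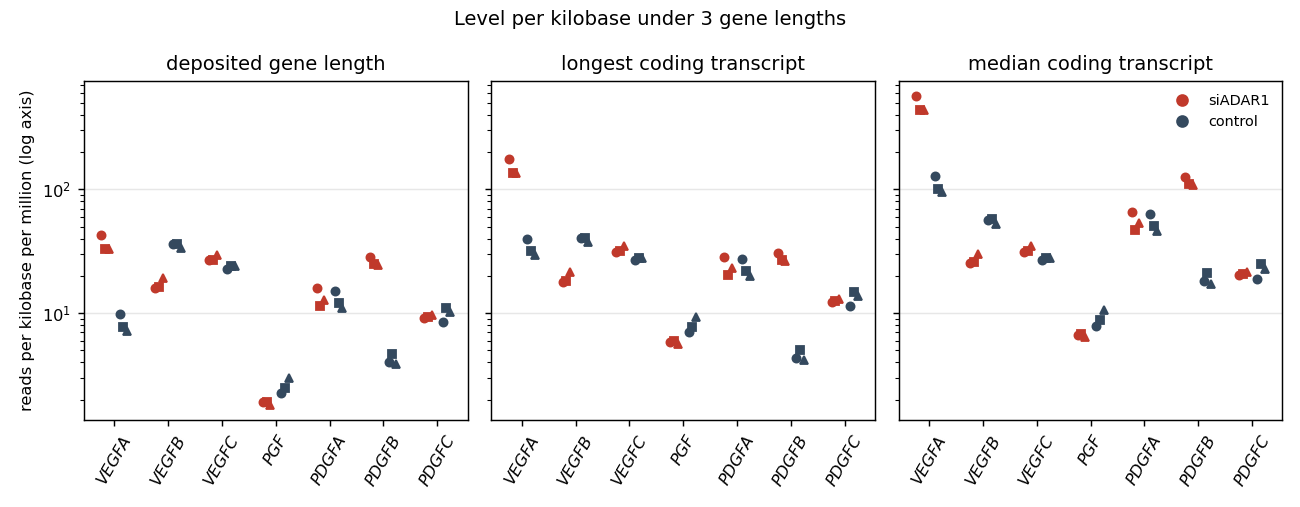
FPKM levels (log axis) of 7 of the genes under the deposited gene length, the longest and the median coding transcript of GENCODE 29; symbols are libraries, siADAR1 to the left of control, and PDGFD is left out because 2 of its values are 0. VEGFA moves from rank 5 in control under the deposited length to rank 2 and rank 1 under the others, while it leads in siADAR1 in all 3 panels.

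The kinase receptors for these ligands were almost without reads. FLT1, KDR and FLT4 had 0 counts in all 6 libraries, which allows up to 3 counts, or 0.173 to 0.198 CPM on library totals, counting error only. PDGFRA had 0, 0 and 3 counts in siADAR1 and 4, 2 and 2 in control, and PDGFRB had 16, 9 and 2 in siADAR1 and 6, 27 and 10 in control. The 3 other genes of the list had enough counts, and all 3 fell, where 25.0% of tested genes did (median log2 fold change -0.90).

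NRP2, the neuropilin that binds VEGFC, had 37.5, 56.2 and 52.8 CPM in siADAR1, against 99.3, 106.7 and 106.6 CPM in control. It fell by 1.10 ± 0.13 (SE) on the log2 scale, with an edgeR adjusted p of 1.96e-05. NRP1, the neuropilin that binds forms of VEGFA and VEGFB, had 98.8, 104.7 and 98.9 CPM in siADAR1, against 129.8, 122.5 and 121.3 CPM in control (log2 fold change -0.30 ± 0.08, SE; edgeR adjusted p = 7.81e-03). Its call was lost with library totals alone, at -0.19 and an adjusted p of 0.0713 in edgeR, a scaling that moves the median of all genes up to 0.122. PDGFRL, a receptor-like gene without a kinase domain, had 2.43, 3.37 and 4.39 CPM in siADAR1, against 4.89, 6.39 and 7.75 CPM in control (log2 fold change -0.90 ± 0.26, SE; edgeR adjusted p = 0.0111). The PDGFRL call was lost without control replicate 3 (edgeR adjusted p = 0.0579) and in limma on log2(FPKM + 1) with no filter (-0.59, limma adjusted p = 0.0656).

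In the groups that follow, genes outside the naming rule, FURIN and EGR1 among them, were chosen after their values were seen. The rule itself took the 3 genes of each list with the smallest p, from lists chosen with earlier results known. Adjusted p-values of these genes therefore describe selected genes and are no independent tests. Among 10 genes that process the ligands, 3 rose (PLAU, CTSD and PCSK7) and 2 fell (ST14 and CCBE1), near the background of 26.0% and 25.0%, and the median log2 fold change was -0.01. PLAU, the urokinase that can activate PDGF-DD, rose to 165.2 ± 16.1 CPM in siADAR1, against 47.0 ± 8.21 CPM in control (SD, n = 3 each; log2 fold change 1.81 ± 0.12, SE; edgeR adjusted p = 3.01e-07). ST14, the protease matriptase that also cleaves PDGF-DD, fell by 0.84 ± 0.08 (SE), and CTSD, a cathepsin that can cleave VEGFC, rose by 0.31 ± 0.08. FURIN, the convertase that cleaves VEGFC and several PDGF precursors, had a log2 fold change of 0.03 ± 0.08 (edgeR adjusted p = 0.819). The count that fell was 1 without control replicate 3 or with library totals alone.

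Most other targets of HIF fell, while the oxygen-sensing genes went both ways. Of 16 other HIF targets, 10 fell and 2 rose, where 25.0% and 26.0% of all tested genes did, and 4 were not called. Their median was -0.67 on the log2 scale. LDHA, lactate dehydrogenase A, fell by 1.27 ± 0.11 (SE), HK2, a hexokinase, by 0.88 ± 0.08 and SLC2A1, the glucose transporter GLUT1, by 0.77 ± 0.08, each on the log2 scale. The 2 that rose were ADM, which encodes the vasoactive peptide adrenomedullin, at 0.90 ± 0.10, and KDM3A, a histone demethylase, at 0.53 ± 0.11. Of 8 oxygen-sensing genes, 4 rose (HIF1A, EPAS1, EGLN1 and VHL) and 2 fell (median 0.09), against the same 26.0% and 25.0% of tested genes. EPAS1, which encodes HIF-2 alpha, rose by 0.36 ± 0.08 (SE), while HIF1AN, the asparaginyl hydroxylase that limits HIF activity, fell by 0.71 ± 0.10 and EGLN3, a prolyl hydroxylase and itself a HIF target, by 0.86 ± 0.13. The number that rose was 1 without siADAR1 replicate 2, and 2 without siADAR1 replicate 3 or control replicate 1.

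Of 10 transcription factors known to act on promoters of this family, 6 rose and 1 fell, where 26.0% and 25.0% of tested genes did (median log2 fold change 0.47). JUN rose to 419.4 ± 76.1 CPM in siADAR1, against 167.9 ± 5.36 CPM in control (SD, n = 3 each; log2 fold change 1.32 ± 0.12, SE; edgeR adjusted p = 2.06e-06). ETS1 rose by 0.96 ± 0.09 and FOSL1, the AP-1 subunit FRA1, by 0.86 ± 0.09. SP1 was the gene that fell, by 0.58 ± 0.11. EGR1 had 1835, 6913 and 8168 counts in siADAR1 and 263, 773 and 2203 in control, a spread within groups so wide that a log2 fold change of 2.32 ± 1.09 (SE) did not pass (edgeR adjusted p = 0.153); DESeq2 and the fit with the replicate number as a block did call it.

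AU-rich elements lie in VEGFA mRNA and govern its decay. Of 7 genes listed as encoding proteins that bind such elements, 2 rose and 4 fell (median -0.35). The background was 26.0% higher and 25.0% lower, so the number that rose was near it. ZFP36L1 and ZFP36, both of which promote decay, rose by 1.34 ± 0.09 and 1.25 ± 0.15 (SE) on the log2 scale. ELAVL1, the stabilising protein HuR, fell by 0.86 ± 0.10 (edgeR adjusted p = 1.82e-05), and so did KHSRP, which promotes decay, by 0.58 ± 0.09. HNRNPD also fell, as did HNRNPL, which is known to bind CA-rich rather than AU-rich elements.

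Of 10 feedback genes downstream of receptor tyrosine kinases, 5 rose and 1 fell, where 26.0% and 25.0% of tested genes did (median log2 fold change 0.41). DUSP5, a phosphatase of nuclear ERK, had 64.3, 47.0 and 45.6 CPM in siADAR1, against 12.6, 10.8 and 10.6 CPM in control (log2 fold change 2.20 ± 0.15, SE; edgeR adjusted p = 3.45e-07). DUSP4 rose by 0.79 ± 0.08, and ERRFI1, an inhibitor of the EGF receptor, by 1.09 ± 0.14. SPRY2 and SPRED1 were the others that rose, and SPRED2 was the gene that fell. Without control replicate 1 or siADAR1 replicate 3, 2 fell, DUSP6 being added.

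Of 9 other angiogenic factors, 4 had enough counts and all 4 rose, where 26.0% of tested genes did, with a median of 1.72. CXCL8, the chemokine interleukin-8, had 114.1, 120.2 and 127 CPM in siADAR1, against 6.40, 18.8 and 21.5 CPM in control (log2 fold change 2.96 ± 0.43, SE; edgeR adjusted p = 2.95e-03). Its siADAR1 libraries lay close together and control replicate 1 was the lowest. EDN1, endothelin-1, rose by 2.41 ± 0.37, ANGPT1, a ligand of the endothelial receptor TEK, by 1.02 ± 0.19, and FGF2, basic fibroblast growth factor, by 0.82 ± 0.24. FGF2 had 26.7, 14.1 and 13.7 CPM in siADAR1, against 11.0, 10.4 and 9.59 CPM in control, so siADAR1 replicate 1 raised its fold. Of 7 tested inhibitors of angiogenesis, 4 fell and 1 rose (median -0.37), where 25.0% and 26.0% of tested genes did. THBS1, thrombospondin-1, fell to 1491 ± 184 CPM in siADAR1, against 2682 ± 338.4 CPM in control (SD, n = 3 each; log2 fold change -0.85 ± 0.11, SE; edgeR adjusted p = 3.38e-05). SEMA3F, a neuropilin-2 ligand, fell by 0.57 ± 0.13, and VASH1, vasohibin-1, by 2.29 ± 0.54 with at most 5 counts in a siADAR1 and 21 in a control library; COL18A1 was the other that fell. SEMA3B rose, a call lost when siADAR1 replicate 2 or 3, or either of control replicates 1 and 2, was left out, whereas SEMA3A was added without control replicate 3.

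**Figure D3:**
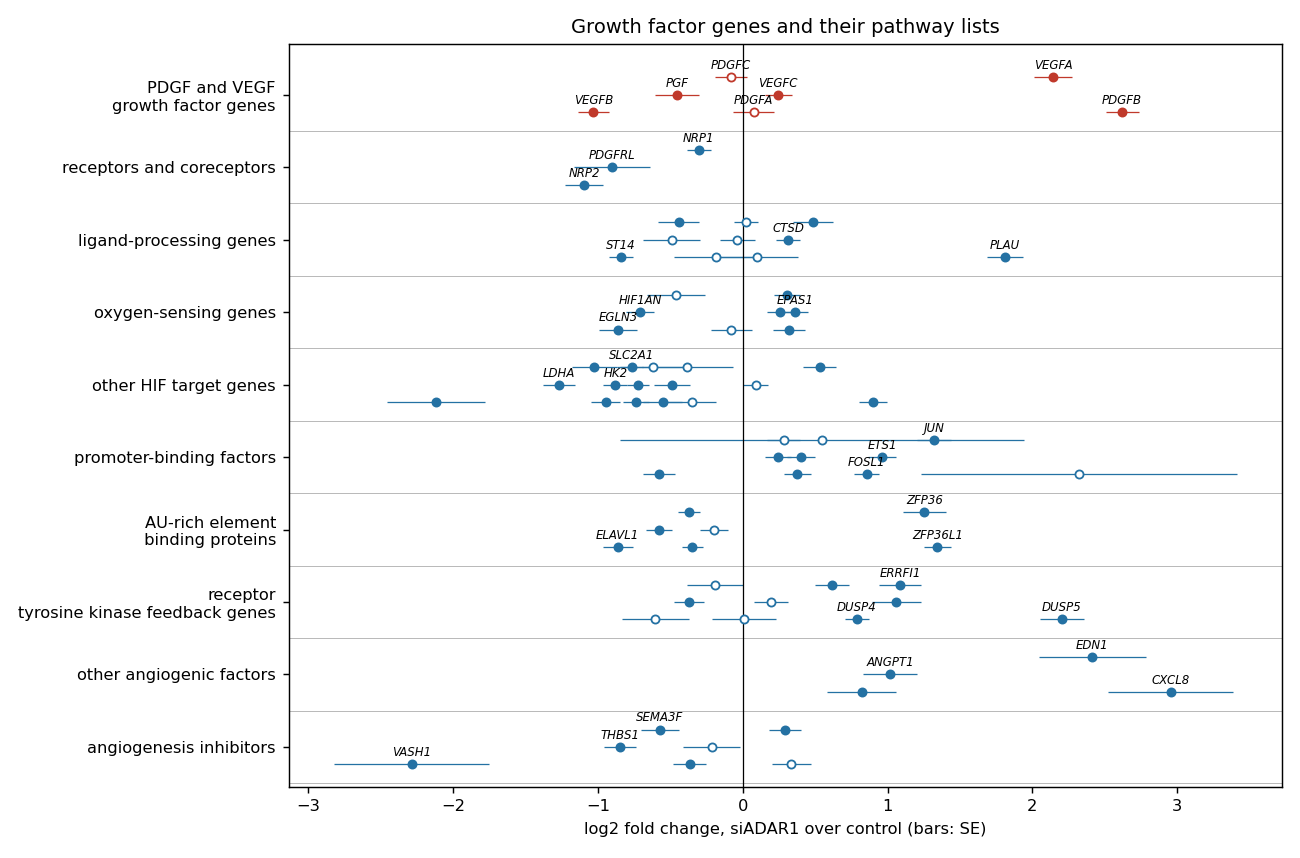
Log2 fold changes of siADAR1 over control with SE for the tested growth factor genes (top row, red) and for each pathway list (blue); filled points passed an adjusted p of 0.05 over all 15294 tested genes, open points did not. VEGFA and PDGFB lie above 2, while most other HIF targets lie below 0 and all 4 tested angiogenic factors lie above it.

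The genes whose 6-library profiles lay nearest to VEGFA, PDGFB and VEGFB were found among 11603 protein-coding genes averaging 2 CPM or more, by Euclidean distance on log2 CPM relative to the control mean. They were picked for their likeness, so their values are a description. Nearest to VEGFA was DUSP5, at a distance of 0.172, and it shared the high value of replicate 1 in both groups. PDLIM2, a PDZ and LIM domain protein that promotes degradation of NF-kB subunit p65, followed at 0.306, with 92.0, 63.6 and 60.6 CPM in siADAR1, against 18.2, 17.0 and 15.8 CPM in control. NFKBIE, an inhibitor of NF-kB, came next at 0.316.

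Nearest to PDGFB was SNAI2, the transcription factor SLUG, at 0.181, with 574.4, 498.8 and 502.4 CPM in siADAR1, against 76.1, 96.9 and 86.4 CPM in control. ARNTL, the clock factor BMAL1, followed at 0.232 and HIST1H2AG, a histone gene with near-identical copies whose reads may be shared among them, at 0.327. Nearest to VEGFB were TRIB2, a pseudokinase, at 0.113, PTMS, parathymosin, at 0.131 and NXPH4, a neurexophilin, at 0.159. TRIB2 had 9.31, 9.99 and 10.9 CPM in siADAR1, against 22.1, 21.1 and 20.4 CPM in control.

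**Figure D4:**
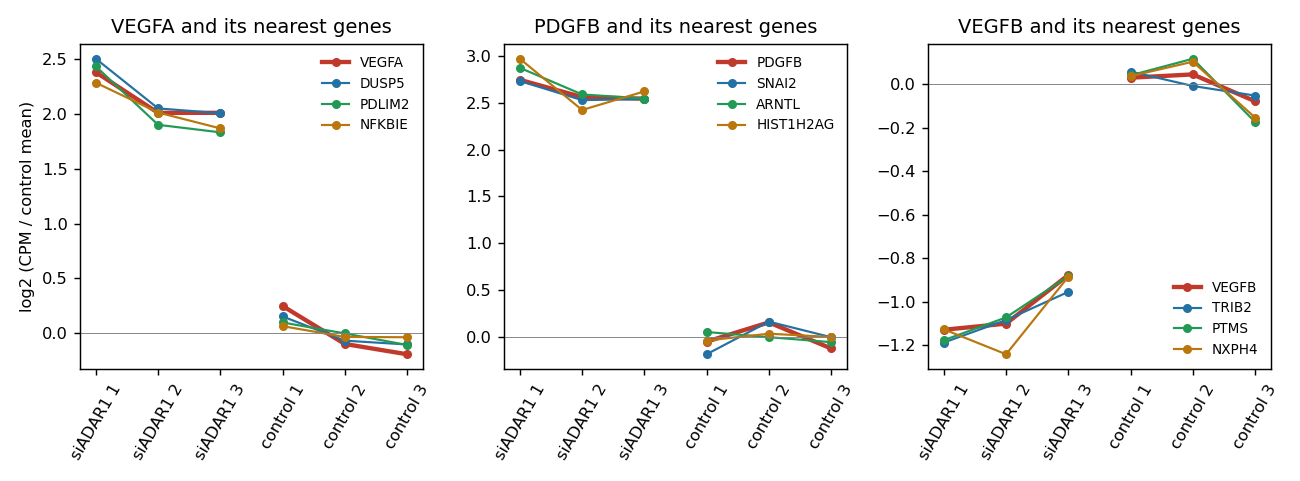
Log2 of CPM over the control mean in each library, siADAR1 libraries left of the controls, for VEGFA, PDGFB and VEGFB (thick red) and the 3 genes nearest to each; lines join libraries of 1 group only as a guide and mark no order. VEGFA and DUSP5 both stand highest in replicate 1 of each group.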

How the data were processed

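Counts of reads per gene were deposited by the authors as whole numbers with no scaling, per the file headers, for 3 siADAR1 and 3 control libraries. FPKM values were deposited by the authors too, with a library factor of their own of 0.966 to 1.06 times the count total, and per the file headers their gene length is the exon union. The submitters' processing notes name CASAVA, fastp and HISAT2 2.0.5, while no counting tool or strand setting is given in the sources used here. The coordinates of all 58735 genes equal GENCODE 29 on GRCh38. 0 columns were left without a sample. Columns were matched to samples by group and replicate number in the titles.

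Counts were fitted in R 4.3.3 with edgeR 4.0.16: filterByExpr with a minimum count of 10, TMM scaling, a robust two-sided quasi-likelihood F test on group alone, and Benjamini-Hochberg adjustment over 15294 genes. The SE is the log2 fold change divided by the square root of F. Levels are CPM on scaled sizes of the tested genes' totals. Alternatives used DESeq2 1.42.0, limma 3.58.1 on counts or on log2(FPKM + 1 or 0.1), other scalings and filters, the replicate number as a block, and leaving out each library. All labels carry the same batch value. Pairs of libraries within a group differed beyond counting noise. Over genes with at least 20 counts, chi-square per degree of freedom was 14.1 to 18.0 for pairs that held replicate 1. Between replicates 2 and 3 it was 3.95 in siADAR1 and 5.02 in control.

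The members and lists were chosen with earlier results of these data known. Genes named by rule are the members, the 8 genes of the receptor list, the 3 members of each other pathway list with the smallest p, and the 3 genes nearest to each member with an absolute log2 fold change of at least 1. Other genes, such as cell type markers, FURIN and EGR1, were named after their values were seen. Reads carry no molecular identifiers, so floors cover counting error only.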

Additional observations from a re-analysis of the deposited data

How the results depend on the processing

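VEGFA, PDGFB and VEGFB kept their direction and their call in all 17 alternatives, with log2 fold changes of 2.01 to 2.27, 2.36 to 2.74 and -1.11 to -0.91. VEGFC ranged from 0.20 to 0.36 and PGF from -0.56 to -0.31, each losing its call in some. The members called higher numbered 2 to 3 and those called lower 1 to 2 when a library was left out, and 1 was lower with library totals alone or on log2(FPKM + 1) without a filter. Genes called over the whole table numbered 6737 to 7852 when a library was left out. The rank of VEGFA in control was 2 by the longest and 1 by the median coding transcript.

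Small lists moved most. Angiogenesis inhibitors called higher numbered 2 with library totals alone, DESeq2, limma-voom, no filter, a mean of at least 1 CPM, the replicate block and without both libraries numbered 1, 0 on FPKM in all 3 forms, and 0 to 2 when a library was left out; those called lower numbered 2 on unfiltered FPKM. Ligand-processing genes called lower numbered 1 with library totals alone and on unfiltered FPKM, and 1 to 3 when a library was left out. Oxygen-sensing genes called higher numbered 1 on unfiltered FPKM and 1 to 4 when a library was left out. Feedback genes called lower numbered 0 with library totals alone, 2 with DESeq2, no filter, the replicate block and without both libraries numbered 1, and 1 to 2 when a library was left out. The cause was not tested.

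Same-numbered libraries correlated in their deviations from the group means at 0.251, 0.0844 and 0.106 for replicates 1, 2 and 3. Unlike-numbered pairs that held a replicate 1 lay at -0.169 to -0.13, and those between replicates 2 and 3 at 0.0668 and 0.0917. Replicate 1 thus shared part of its deviation across the groups, while replicates 2 and 3 correlated about as much across numbers as within them. Deviations from a group mean cancel within the group by construction, so these correlations constrain each other and are not separate observations. No label says that the numbers pair the samples, and the main fit did not pair them. With the replicate block 8582 genes were called, against 7804 in the main fit, with 3 members higher and 2 lower. At totals of 15175619 to 17329443 counts a library, PDGFD, VEGFD and the kinase receptors were too low to compare.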

Other observations

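Genes that overlap the growth factor genes on the other strand added few reads of their own. AL031590.1, antisense to PDGFB across 2564 bases, had 3, 1 and 1 counts in siADAR1 and 0, 0 and 0 in control, and AC093801.1, antisense to VEGFC, had 1, 1 and 2 in siADAR1 and 0, 1 and 0 in control. Without a stated strand setting, reads of such partners cannot be told apart from those of the growth factor gene where exons overlap. These genes were chosen after their values were seen.

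FGF1, another secreted factor of the angiogenic list that had too few counts to be tested, had 9, 10 and 13 counts in siADAR1 and 1, 1 and 0 in control. FOS, a partner of JUN in AP-1, spread as widely within groups as EGR1, with 193, 311 and 1308 counts in siADAR1 and 110, 81 and 1000 in control, highest in replicate 3 of each group. VEGFA and PDGFA were highest in replicate 1 of each group. Any link of FOS or EGR1 to their levels was not tested. FGF1 and FOS were chosen after their values were seen.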
